A study of Mus musculus with 9 samples.

Results

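Gene expression was measured by RNA sequencing in 6 mouse tumours of a WNT medulloblastoma model, 3 labelled with the letters EV (read here as empty vector) and 3 with MycT58A, out of 9 libraries in the series. The members compared are these 6 libraries, chosen by their genotype labels, and the quantity compared is the spread of each gene among the 3 tumours of a group, not the level of the groups. All 6 tumours grew in CD1-nude mice, a strain without a thymus, from implanted cells that carried Blbp-Cre, Ctnnb1Ex3flx/flx, Trp53flx/flx and Pik3caE545K +/flx. The 3 remaining libraries, of normal cerebellum from CD1-nude mice, serve here as the background for spread. The sources used here give no ages and no times after implantation. Blbp (Fabp7) drives Cre in neural progenitors and radial glia. GFP-positive regions were microdissected, so each library is a mixture of tumour cells and of whatever host cells lay in the piece. The design text speaks of 3 biological replicates per condition, but no label tells if they were grown from separate donor cell preparations, so a p-value here measures only the spread between these libraries, which may be technical. Tumours are called EV1, EV2 and EV3 and MycT58A 1, 2 and 3 in sample order, and these names stand for the libraries as labelled.

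Deletion of exon 3 of Ctnnb1 removes the sites that mark beta-catenin for destruction, so the WNT pathway is held on, while loss of Trp53 removes a guard against damaged genomes and the E545K form of Pik3ca activates growth signalling. MYC is a transcription factor known for driving ribosome biogenesis, nucleotide synthesis and cell division, and MycT58A lacks a phosphorylation site that normally leads to its degradation. Replicate tumours can differ in the genes their cancer cells express, in the copies of a chromosome they carry, and in the blood vessels, immune cells and neighbouring brain that come along with the piece.

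The libraries held 29701006, 22012375 and 16631523 counts in EV1 to EV3 and 28888621, 30410089 and 24423717 in the MycT58A tumours. Of 24444 gene symbols, 13455 had a mean of at least 1 CPM (counts scaled to a common library size) over the 6 tumours and were analysed. Spread is the standard deviation (SD) of log2 CPM among 3 libraries, with a prior count of 2, so an SD of 1 stands for a typical distance of 2-fold from the group's mean.

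Most genes differed more among the empty-vector tumours than among the MycT58A tumours. Over all genes the SD had a median of 0.62 in the empty-vector group (quartiles 0.37 and 1.07), 0.18 in the MycT58A group (quartiles 0.10 and 0.33) and 0.16 in the control cerebellum. The ratio of the tumour medians was 3.44-fold, and the SD was larger in the empty-vector group for 11999 of 13455 genes (89.2%). Counting error was small beside this, with a median expected SD of 0.057 in the empty-vector and 0.055 in the MycT58A group. An SD above 1 was found for 3724 genes (27.7%) among the empty-vector tumours, for 473 genes (3.52%) among the MycT58A tumours, and for 2.15% of genes in the controls.

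The difference held at every level of expression. Among genes with 1 to 3 CPM the median SD was 1.12 in the empty-vector group and 0.47 in the MycT58A group, and 80.3% of genes had the larger SD in the former. At 300 CPM and above, where counting error is least, the medians were 0.56 and 0.13, and 95.8% of genes had the larger SD among the empty-vector tumours. Each empty-vector tumour took part in it, EV2 most: without EV2 the ratio of the median SDs was 2.32-fold, the lowest with any library left out. The median absolute distance of a gene from its group's mean was 0.348, 0.504 and 0.429 log2 units in EV1, EV2 and EV3, and 0.108, 0.130 and 0.127 in the MycT58A tumours. The lowest empty-vector value lay above the highest MycT58A value. The group means of these 6 values were 0.427 ± 0.0776 (SD, n = 3) and 0.122 ± 0.0120 (SD, n = 3), and an exact two-sided permutation test over the 6 libraries gave p = 0.1, the smallest that 3 against 3 allows. Genes more than 2-fold from their group's mean made up 14.0%, 23% and 19.1% of genes in EV1 to EV3, against 2.05%, 3.52% and 1.25% in the MycT58A tumours.

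**Figure D1:**
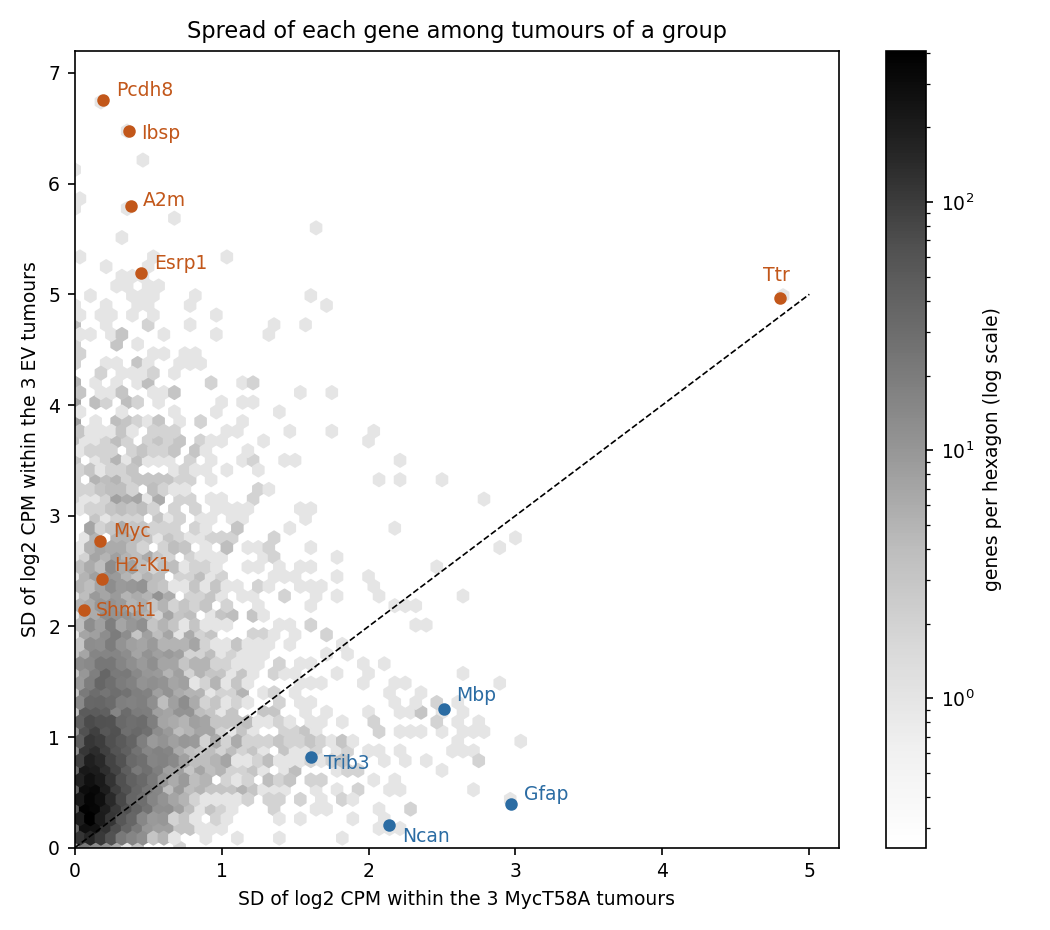
SD of log2 CPM of each gene among the 3 empty-vector tumours against that among the 3 MycT58A tumours (log2 units on both axes), with shading for the number of genes in a hexagon, named genes as points and a dashed line of equal SD. Most of the 13455 genes lie on the side of larger SD in the empty-vector group, whose median SD was 0.62 against 0.18.

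A test of the variance ratio for each gene, with variances moderated across genes by limma and Benjamini-Hochberg adjustment, called 7781 of 13455 genes (57.8%) as more variable in the empty-vector group and 2 (0.0149%), Gfap and Ncan, as more variable in the MycT58A group. With 3 tumours a group this test carries the group-wide difference more than that of a single gene: 114 of the genes it called for the empty-vector group had the smaller SD there. Without moderation it called 82 and 0 genes, with 3450 and 41 at an unadjusted p under 0.05, so gene values below are given as the tumours themselves show them. Leaving out EV2 took the 7781 genes to 271, and leaving out MycT58A 1 or MycT58A 3 took them to 0, with 6127 and 7501 genes at an unadjusted p under 0.05 in that direction.

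The engineered genes were read first, as a check of the labels. Myc stood at 360, 19.9 and 762 CPM in EV1, EV2 and EV3 and at 918, 859 and 727 CPM in the MycT58A tumours, with SDs of 2.77 and 0.17 (adjusted p = 0.0139, variance-ratio test with limma). The library labelled empty-vector replicate 3 thus lay inside the MycT58A range, EV1 below it and EV2 far below it; the counts do not separate Myc made from the vector from Myc made from the mouse gene. Pvt1, a non-coding gene that neighbours Myc on chromosome 15 and is not part of the vector by its label, stood at 96.4, 3.74 and 260 CPM in EV1 to EV3 and at 8.27, 7.91 and 4.86 CPM in the MycT58A tumours. Pvt1 took the same order over the empty-vector tumours as Myc, and both EV1 and EV3 were above every MycT58A tumour for it.

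Ctnnb1 was even in both groups, at 1019, 1088 and 1046 CPM in EV1 to EV3 and 1040, 1079 and 989 CPM in the MycT58A tumours, with SDs of 0.05 and 0.06. Gene counts do not show the loss of its exon 3. Pik3ca varied more, at 196, 93.8 and 78.6 CPM against 67.9, 77.2 and 101 CPM (SDs 0.70 and 0.29). Trp53 stood at 5.17, 9.34 and 6.12 CPM and at 10.3, 10.5 and 6.91 CPM (SDs 0.43 and 0.34), so its spread was alike in size in both groups. Fabp7, the gene whose promoter drives Cre, had its spread in the other group: 10.9, 15.6 and 16.9 CPM in the empty-vector tumours, and 17.4, 1.03 and 16.1 CPM in MycT58A 1, 2 and 3.

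Genes of the WNT pathway were of both kinds, even and uneven. Over 22 WNT target genes and regulators the median SD was 0.87 in the empty-vector and 0.31 in the MycT58A group. The SD was larger in the empty-vector group for 20 of the 22, near the share of 89.2% over all genes. Axin2, a feedback inhibitor induced by beta-catenin, stayed at 216, 212 and 198 CPM in EV1 to EV3 and at 216, 187 and 229 CPM in the MycT58A tumours (SDs 0.07 and 0.15). Notum, which inactivates secreted WNT proteins, stood at 210, 222 and 176 CPM in EV1 to EV3 and at 202, 288 and 157 CPM in the MycT58A tumours, an SD of 0.18 and 0.44, so it was less even in the latter. Other secreted members varied far more among the empty-vector tumours. The ligand Wnt16 stood at 7.19, 349 and 10.1 CPM in EV1 to EV3 against 29.6, 55.2 and 28.5 CPM in the MycT58A tumours (SDs 3.09 and 0.53). Sfrp1, a secreted WNT antagonist, stood at 11.6, 148 and 1.47 CPM against 23.2, 29.0 and 19.6 CPM (SDs 3.30 and 0.28). Rspo3, which strengthens WNT signals at the receptor, reached 23.3 and 31.0 CPM in EV1 and EV2 but 0.510 CPM in EV3, and 2.84 to 4.71 CPM in the MycT58A tumours.

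Many growth genes were highest in EV3, next in EV1 and lowest in EV2, which is also the order of Myc. That order was found for 2714 of all 13455 genes (20.2%), for 25 of 25 ribosome biogenesis genes and for 20 of 22 genes of nucleotide and one-carbon metabolism. It was found for 19 of 23 DNA replication genes, 14 of 22 genes of mitosis, 10 of 16 translation factors and 5 of 22 ribosomal proteins. The order was not particular to these lists. It was also found for 10 of 20 proteasome genes, 10 of 19 splicing factors, 10 of 19 chromatin remodelling genes and 11 of 21 glycolysis and hypoxia genes. Vesicle transport had it for 0 of 18 genes and the WNT list for 2 of 22. The ribosome biogenesis list had a median SD of 1.09 in the empty-vector and 0.08 in the MycT58A group, and its median member stood 0.33 log2 units above the group's mean in EV1, 1.21 below it in EV2 and 0.88 above it in EV3, against 0.04 units or less in each MycT58A tumour. Gnl3, nucleostemin, a nucleolar GTPase, stood at 258, 33.3 and 296 CPM in EV1 to EV3 and at 164, 164 and 166 CPM in the MycT58A tumours. Ncl, the nucleolar protein nucleolin, stood at 1642, 789 and 3065 CPM in the same empty-vector tumours. Bop1, a processing factor of the large subunit, had the smallest SD of the list, at 0.77, at 126, 62.1 and 176 CPM.

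Nucleotide and one-carbon genes were similar, with a median SD of 1.08 against 0.11, and EV3 was highest for 22 of 22. Of all 13455 genes, 4309 were highest in EV3. Cad, whose enzyme opens pyrimidine synthesis, stood at 135, 49.4 and 485 CPM in EV1 to EV3 and at 423, 424 and 419 CPM in the MycT58A tumours. EV3 lay above and EV1 and EV2 far below the MycT58A tumours, which were nearly equal. Shmt1, which moves one-carbon units from serine, stood at 53.3, 7.05 and 130 CPM against 163, 162 and 174 CPM (SDs 2.15 and 0.06). Mthfd2, the mitochondrial one-carbon enzyme, was the most even of the list in the empty-vector group, at 53.4, 59.9 and 93.8 CPM.

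Cell division genes were low in EV2. EV2 was lowest for 22 of 22 genes of mitosis and 22 of 23 of DNA replication, where 4972 of 13455 genes overall were lowest in EV2. Mcm10, which helps to start replication, stood at 48.4, 6.33 and 60.8 CPM in EV1 to EV3 and at 76.1, 65.5 and 82.6 CPM in the MycT58A tumours. The mitotic kinase Aurka stood at 68.7, 12.2 and 88.9 CPM against 79.0, 68.2 and 98.8 CPM. For both genes EV1 and EV3 lay near the MycT58A values and EV2 lay far below them. The median SD of the mitosis list was 1.02 in the empty-vector group, 0.15 in the MycT58A group and 1.30 in the controls, where these genes are low. Markers of several resident brain cell types were high in the same tumour, where 5117 of 13455 genes overall were highest. Purkinje neuron markers were highest in EV2 for 10 of 12 measured and summed to 249, 1124 and 185 CPM in EV1 to EV3 and 224 to 321 CPM in the MycT58A tumours. Granule neuron markers were highest in EV2 for 12 of 14 and summed to 90.4, 194 and 99.2 CPM against 190 to 249 CPM. Astrocyte markers were highest in EV2 for 14 of 17. Markers common to most neurons were mixed, with EV2 highest for 11 of 20. Their summed level was 158, 362 and 463 CPM in EV1 to EV3, so EV3 had the highest sum. The part of these cells in the low growth genes of EV2 was not tested.

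The ribosomal proteins themselves were less spread than the genes that build ribosomes. Their median SD was 0.59 in the empty-vector and 0.21 in the MycT58A group. EV2 was lowest for 22 of 22, and EV1 rather than EV3 was highest for 17 of 22. Of all 13455 genes, 4029 were highest in EV1. Rps2, a small-subunit protein, stood at 3859, 1349 and 3459 CPM in EV1 to EV3. Within the MycT58A group these genes also moved as a block: MycT58A 2 was highest and MycT58A 1 lowest for 22 of 22. Over all 13455 genes these counts were 4104 and 3124. Reads of ribosomal protein genes can fall on their many processed copies, so the single values are uncertain. Glycolysis and hypoxia genes had a median SD of 1.05 against 0.23, with EV3 highest for 14 of 21; Pgk1, a glycolytic kinase, stood at 758, 307 and 2560 CPM in EV1 to EV3. The cholesterol synthesis list had medians of 0.68 and 0.18, with EV3 highest for 12 of 20, beside 4309 of 13455 genes overall.

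**Figure D2:**
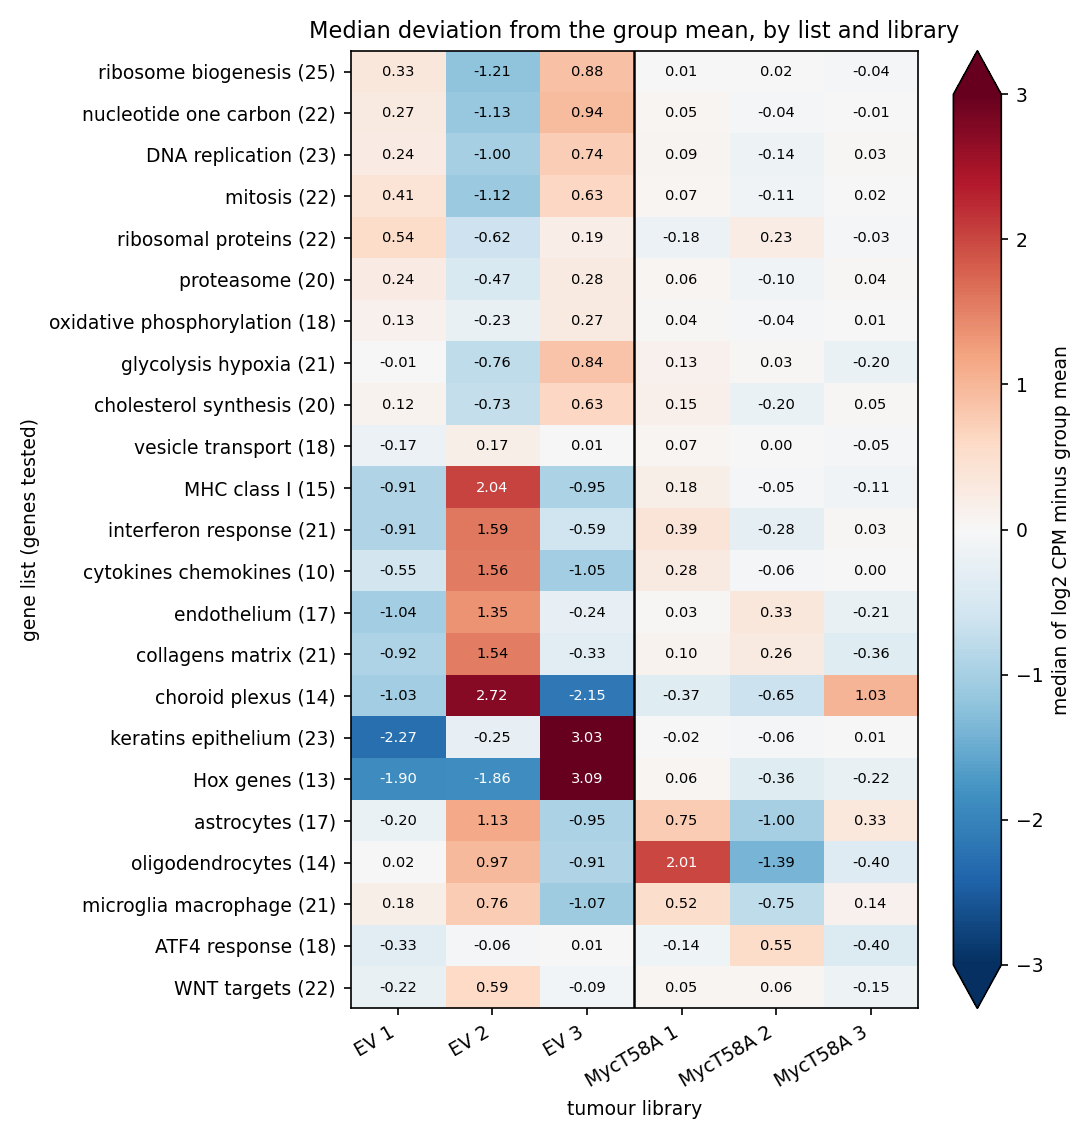
Median deviation from the group's mean (log2 units, colour scale) of the members of each gene list in each of the 6 tumours, lists in rows and libraries in columns. EV2 is low for ribosome biogenesis (1.21 below the mean) and high for MHC class I (2.04 above it), EV3 is high for keratins and epithelium (3.03 above it), and the MycT58A columns are pale except for cell type lists such as oligodendrocytes.

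EV2 stood apart by antigen presentation and interferon genes. MHC class I molecules show peptides on the cell surface, and interferons raise both these genes and a set of antiviral genes. EV2 was highest for 15 of 15 MHC class I pathway genes and for 19 of 21 interferon response genes, where 5117 of 13455 genes overall were highest in EV2. The median member stood 2.04 log2 units above the group's mean in EV2 for the first list and 1.59 above it for the second. Median SDs were 1.83 and 1.53 among the empty-vector tumours and 0.20 and 0.39 among the MycT58A tumours. B2m, the light chain of MHC class I, stood at 68.9, 724 and 79.1 CPM in EV1 to EV3 and at 73.7, 61.0 and 61.2 CPM in the MycT58A tumours. EV1 and EV3 lay close to the MycT58A tumours for B2m and EV2 far above. H2-K1, a class I heavy chain, stood at 20.9, 583 and 70.1 CPM against 29.6, 30.3 and 24.1 CPM. The immunoproteasome subunit Psmb8 stood at 5.48, 77.6 and 4.31 CPM against 2.88, 2.16 and 2.51 CPM. Reads of the H2 genes can be shared among near-identical copies and are uncertain as single values.

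Of 24 interferon response genes, 21 passed the filter on low values, and Mx1, Mx2 and Oas2 did not. The RNA sensor Ifih1 stood at 2.88, 37.5 and 5.61 CPM in EV1 to EV3 and at 1.87, 1.21 and 1.24 CPM in the MycT58A tumours. The exceptions were Isg15, a ubiquitin-like antiviral protein, at 2.36, 18.1 and 23.4 CPM, and Oas1a at 0.753, 5.14 and 5.22 CPM, both high in EV2 and EV3 and low in EV1. Some class II genes, which present peptides on macrophages and other professional cells, were higher in EV2 by more: H2-Aa stood at 0.890, 144 and 4.65 CPM and Cd74 at 4.62, 462 and 19.1 CPM. Others were not: H2-DMa stood at 3.66, 16.3 and 2.38 CPM, with an SD of 1.44.

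Promoters of interferon response genes hold a known element, the interferon-stimulated response element (ISRE), searched here on both strands as GAAA, any 2 bases and GAAA again in the 250 bases before the start of a gene. Of 18 interferon response genes with a RefSeq promoter, 10 held it (55.6%), beside 315 of 10342 genes tested (3.05%) and 2 of 12 MHC class I pathway genes (16.7%). The promoters of 3 members with large spread among the empty-vector tumours are shown, with the matched letters in capitals (TTTC, 2 bases and TTTC are the same element on the other strand). They are from RefSeq for GRCm38.p6, 5′ to 3′ on the strand of the gene. Ifit3 lies on the plus strand (chr19:34583279-34583528), Gbp2 on the plus strand (chr3:142620413-142620662) and Isg15 on the minus strand (chr4:156200819-156201068).
Ifit3: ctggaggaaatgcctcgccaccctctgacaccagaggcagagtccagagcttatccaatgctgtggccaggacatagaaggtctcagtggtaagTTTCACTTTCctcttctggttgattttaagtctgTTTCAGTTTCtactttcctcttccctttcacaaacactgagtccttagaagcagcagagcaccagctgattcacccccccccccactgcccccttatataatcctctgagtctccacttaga
Gbp2: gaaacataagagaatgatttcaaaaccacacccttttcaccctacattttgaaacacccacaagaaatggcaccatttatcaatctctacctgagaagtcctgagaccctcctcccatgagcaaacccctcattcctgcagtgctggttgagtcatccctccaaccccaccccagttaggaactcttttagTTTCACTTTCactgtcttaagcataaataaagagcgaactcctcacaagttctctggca
Isg15: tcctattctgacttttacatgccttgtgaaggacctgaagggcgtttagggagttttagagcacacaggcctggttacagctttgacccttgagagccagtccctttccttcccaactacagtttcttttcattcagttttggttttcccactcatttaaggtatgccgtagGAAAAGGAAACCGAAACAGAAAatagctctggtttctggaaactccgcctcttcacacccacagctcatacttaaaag
Ifit3, an antiviral protein with 2 matches, stood at 1.95, 15.3 and 0.510 CPM in EV1 to EV3 and at 0.684, 0 and 0.384 CPM in the MycT58A tumours. Gbp2, an interferon-induced GTPase with 1 match, stood at 6.27, 55.5 and 3.97 CPM against 4.35, 2.27 and 2.17 CPM. Isg15 had 3 overlapping matches and was, unlike the other two, at its highest in EV3. A match describes the letters of the window and does not show that a factor was bound there.

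Many markers of blood vessels, connective tissue and choroid plexus were also highest in EV2, as were 5117 of 13455 genes overall. Of 17 pericyte and fibroblast markers, EV2 was highest for 10, EV1 for 4 and EV3 for 3. In bulk tissue, more cells of a type and more RNA per cell cannot be told apart. All 17 endothelial markers passed the filter, EV2 was highest for 15, and their summed level was 167, 709 and 364 CPM in EV1 to EV3 and 186 to 281 CPM in the MycT58A tumours. Cdh5, the cadherin of vessel walls, stood at 7.40, 53 and 22.8 CPM in EV1 to EV3. Of 21 collagen and matrix genes 16 were highest in EV2, and single members spanned a wide range: Postn, a matrix protein of connective tissue, stood at 8.01, 2013 and 58.5 CPM against 14.8 to 20 CPM in the MycT58A tumours, while Lamc1, a laminin chain of basement membranes, stood at 506, 472 and 492 CPM. Col1a1, the main collagen of bone and skin, was high in 2 tumours, at 11.1, 3103 and 6006 CPM in EV1 to EV3. Microglia and macrophage markers, 21 of 21 measured, summed to 715, 1418 and 642 CPM in EV1 to EV3 and to 129 to 279 CPM in the MycT58A tumours, with EV2 highest for 17. Lymphocyte markers were nearly silent, with 1 of 18 (Cd4) past the filter. The share of these cells in the spread of MHC and interferon genes was not tested.

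Some single genes departed far more in EV2. Pcdh8, a protocadherin of embryonic tissue, stood at 0.137, 574 and 0.0567 CPM in EV1 to EV3 and at 8.49, 9.23 and 11.1 CPM in the MycT58A tumours, and its SD of 6.75 was the largest of the empty-vector group. Vtn, a plasma and matrix glycoprotein, stood at 2.02, 2241 and 2.89 CPM. A2m, a protease inhibitor of plasma, stood at 59.9, 29855 and 16.0 CPM and alone made up 3.19% of all counts of EV2. An acute-phase and plasma protein list with A2m and Vtn in it was drawn up after these values were seen, and its 13 measured genes, highest in EV2, only describe that choice. The choroid plexus list, 14 of 16 measured, was highest in EV2 for 11; Otx2, a homeobox gene of that tissue and of some medulloblastomas, stood at 22.9, 506 and 7.71 CPM in EV1 to EV3 and at 193, 269 and 206 CPM in the MycT58A tumours.

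EV3 stood apart by epithelial genes. Keratins form the filaments of epithelial cells, and desmosome proteins join these cells. Of 25 keratin and epithelial genes, 23 passed the filter. EV3 was highest for 20, where 4309 of 13455 genes overall were highest in EV3. The median SD of these 23 genes was 3.15 in the empty-vector and 0.45 in the MycT58A group. Some of them could pass the filter on EV3 alone, and 8 had no count in a tumour library. A gene near 0 in all MycT58A tumours can show little spread there, so these counts and SDs only describe the genes kept. The summed level of the 23 genes was 174, 303 and 1748 CPM in EV1 to EV3 and 98.6 to 125 CPM in the MycT58A tumours. Dsp, the desmosome protein desmoplakin, stood at 9.21, 69.5 and 874 CPM in EV1 to EV3 and at 11, 13.4 and 10.8 CPM in the MycT58A tumours. Krt5, a keratin of basal epithelium, stood at 14.2, 1.49 and 129 CPM, with 0.0720 CPM or less in each MycT58A tumour. The splicing regulator Esrp1, which marks epithelial cells, was at 0, 0 and 42.0 CPM. Cdh1, E-cadherin, went the same way within the group, at 0.205, 4.37 and 22.7 CPM, but all 3 MycT58A tumours were above EV3, at 45.1, 41.6 and 57.9 CPM.

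Genes of hair, bone and tooth and Hox genes joined them. Of a hair and cornified-layer list and a bone and tooth list, both drawn up after values were seen, 14 of 20 and 12 of 18 members passed the filter. A gene high in a single tumour can pass that filter on that tumour alone, and the lists were chosen for EV3, so the values below only describe it. Krtap8-1, a protein of the hair shaft, stood at 0.240, 0 and 173 CPM in EV1 to EV3 with no count in the MycT58A tumours. Ibsp, bone sialoprotein, stood at 0.205, 0.297 and 785 CPM and at 0.180, 0.355 and 0.256 CPM in the MycT58A tumours. Hox genes set position along the body axis and are normally silent in cerebellum. Of 27 Hox genes 13 passed the same filter, some possibly on EV3 alone. EV3 was highest for 11 of them and EV1 for 2, beside 4309 and 4029 of 13455 genes overall. The summed level of the 13 was 85.0, 29.3 and 160 CPM in EV1 to EV3 and 8.01 to 10.5 CPM in the MycT58A tumours, so Hox RNA was not confined to EV3. Hoxb2 stood at 0, 0.0849 and 16.1 CPM in EV1 to EV3 and at 0.319 to 0.540 CPM in the MycT58A tumours. Keratin and hair protein genes have close copies, and their single values are uncertain. Cdkn1a, a cell cycle inhibitor known as a p53 target, was also set apart in EV3, at 107, 132 and 1176 CPM against 35.4, 37.2 and 30.2 CPM.

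EV1 was set apart by fewer genes than EV2 and EV3, some of them neighbours on chromosome 15. Ndufb9, a subunit of respiratory complex I, stood at 2042, 114 and 101 CPM in EV1 to EV3 and at 117, 119 and 117 CPM in the MycT58A tumours (SDs 2.46 and 0.015). EV2 and EV3 lay with the MycT58A tumours and EV1 far above. Golph3, a Golgi protein, stood at 1158, 103 and 97.6 CPM in the same tumours and at 81.5 to 85.9 CPM in the MycT58A tumours. Drosha, the nuclease that starts microRNA processing, stood at 2598, 180 and 221 CPM. Sqle, a cholesterol synthesis enzyme on the same chromosome, stood at 1231, 30.3 and 103 CPM. Sim2, a transcription factor, and Agxt2, an aminotransferase, were at or near 0 in the rest of the group, at 36.5, 0.0849 and 0.113 CPM and at 23, 0 and 0 CPM.

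Counted by a fixed gap, genes set apart in 1 empty-vector tumour numbered 551 (4.1% of genes tested), and genes set apart in 1 MycT58A tumour numbered 24 (0.178%). Such a gene had 1 library at least 2 log2 units from both others of its group, which lay within 0.5 units of each other, and at least 10 CPM in the highest. EV1 held 39 genes set apart upward and 41 downward, EV2 210 and 77, and EV3 112 and 72. MycT58A 1, 2 and 3 held 3, 3 and 3 upward and 1, 14 and 0 downward. Adgrf4, an adhesion receptor, was set apart downward in EV1, at 0.0685, 17.7 and 21.6 CPM, with no count in the MycT58A tumours.

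**Figure D3:**
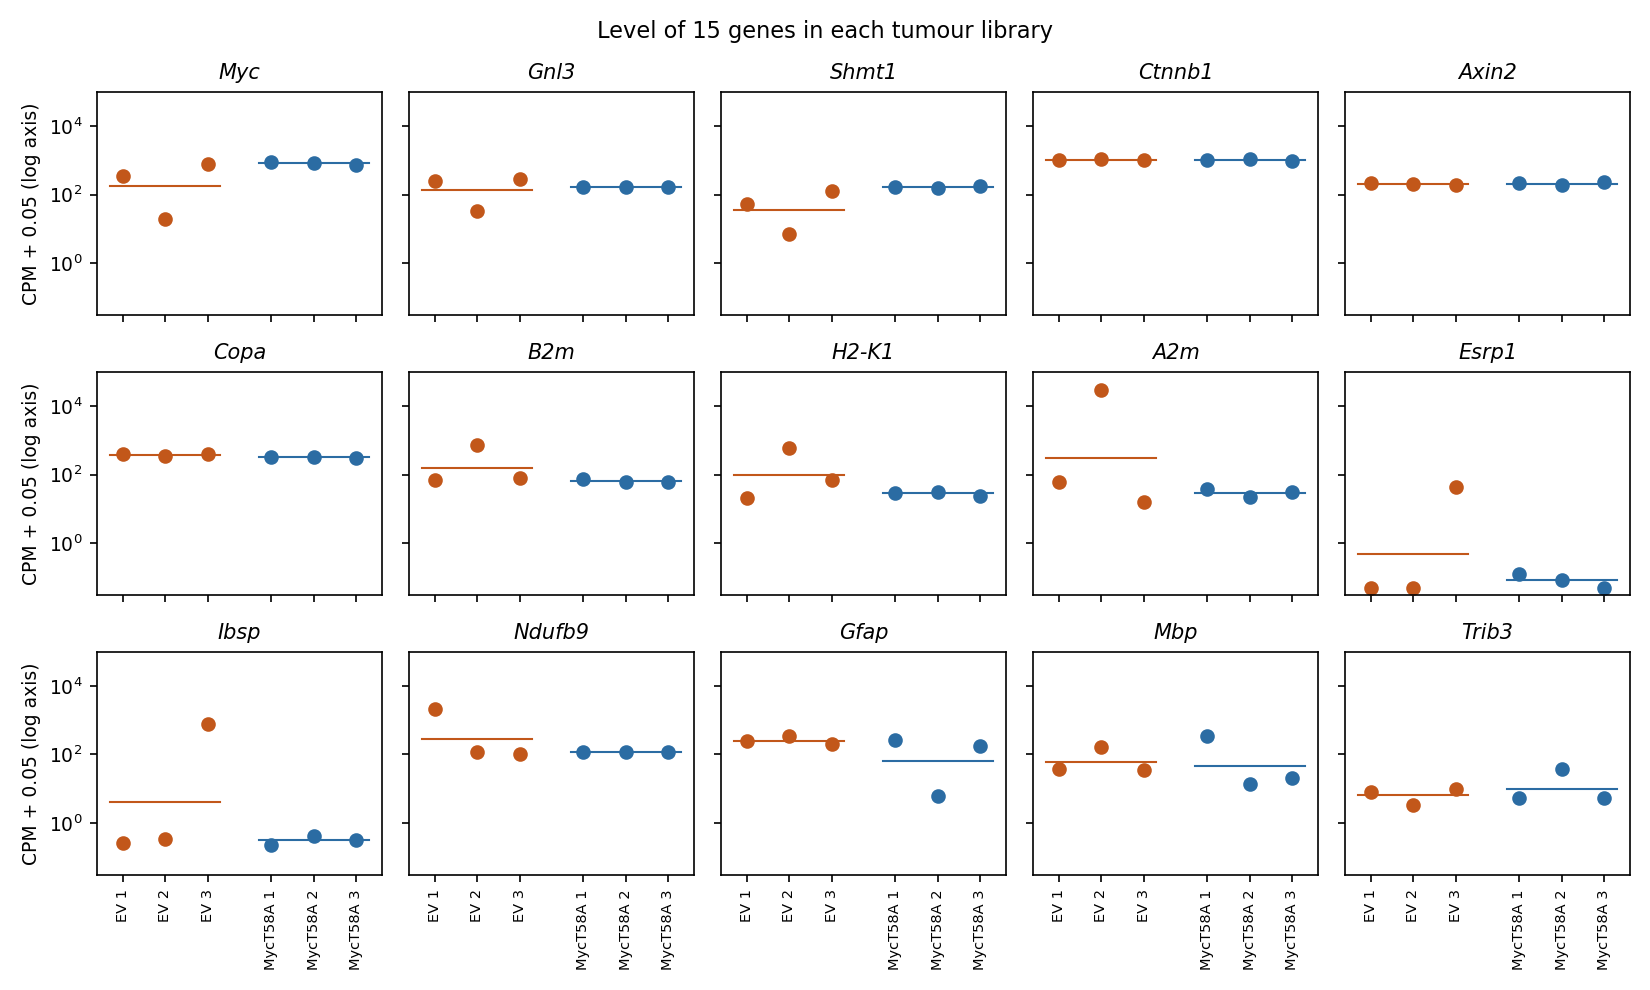
CPM plus 0.05, on a log axis, of 15 genes in each of the 6 tumours, 1 point per library, with lines at the mean of each group's log values. Myc, Gnl3 and Shmt1 are lowest in EV2, B2m, H2-K1 and A2m are highest in EV2, Esrp1 and Ibsp in EV3 and Ndufb9 in EV1, while Ctnnb1, Axin2 and Copa are level in both groups and Gfap is at 6.07 CPM in MycT58A 2.

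The spread also had a pattern along the chromosomes. Of 13455 genes, 13150 were placed on mm10 by GENCODE vM21, and the median deviation from the group's mean was taken for each of 20 chromosomes and each library. In EV1 these medians ran from -0.44 on chromosome 8 to 0.47 on chromosome 3, in EV2 from -0.33 on chromosome 3 to 0.46 on chromosome 14, and in EV3 from -0.40 on chromosome 19 to 0.25 on chromosome 5. Medians beyond 0.25 in size were found for 3, 5 and 3 chromosomes in EV1 to EV3 and for 0, 0 and 0 in the MycT58A tumours. The distance from the lowest to the highest chromosome was 0.904, 0.792 and 0.646 log2 units in EV1 to EV3, and 0.0427, 0.104 and 0.0894 in the MycT58A tumours. Chromosome 3 was thus highest in EV1 and lowest in EV2. Copy number was not measured.

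**Figure D4:**
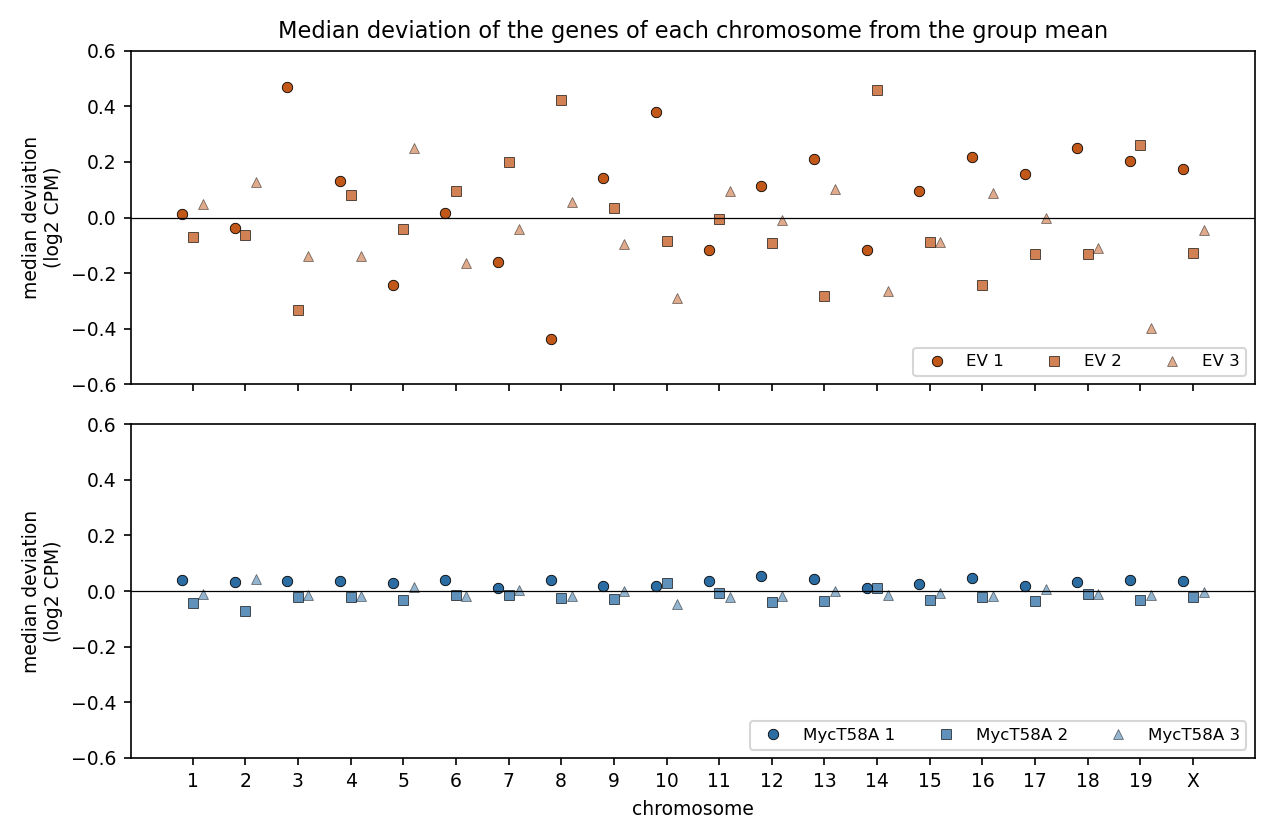
Median deviation of log2 CPM from the group's mean over the genes of each chromosome, 1 point per tumour library. The empty-vector medians spread from -0.44 to 0.47, and the MycT58A medians stay within 0.074 of 0.

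Stretches of neighbouring genes were found in which 1 tumour lay 2 log2 units or more beyond both others. By a rule chosen after values were seen, 5 or more such genes in a row among the genes tested, 14 runs were found in the empty-vector group and 0 in the MycT58A group. With the filter raised to a mean of 5 CPM there were 5 and 0. A gene high in a single tumour can pass the filter on that tumour alone. Silent neighbours are left out, so the filter itself can help to make a run. Krt82, at 0.034, 0 and 9.64 CPM in EV1 to EV3, had 0 CPM in each MycT58A tumour and could join no run there. The 14 against 0 thus only describes the genes kept. All 3 runs of EV1 were upward and on chromosome 15: Spef2 to Rai14 (chr15:9578193-10714624, 7 genes), Tars to Golph3 (chr15:11382301-12351591, 6 genes) and 9130401M01Rik to Trib1 (chr15:58022259-59657099, 15 genes over 1.63 Mb). The third run holds Atad2, Sqle, Ndufb9 and Nsmce2, genes of chromatin, sterol synthesis, respiration and DNA repair, which no gene list used here holds together. Its 15 genes stood 7.86-fold to 21.8-fold, with a median of 14.4-fold, above the mean of EV2 and EV3. In the first and second runs, 6 and 6 genes with counts enough for a fold stood at medians of 16.2-fold and 16.6-fold. Atad2, a chromatin regulator, stood at 606, 13.8 and 41.7 CPM in EV1 to EV3. Derl1, which moves misfolded proteins out of the endoplasmic reticulum and lies shortly before the run, stood at 1481, 139 and 84.3 CPM. Myc lies beyond the end of the third run, at chr15:61985391-61990374, and was not highest in EV1.

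**Figure D5:**
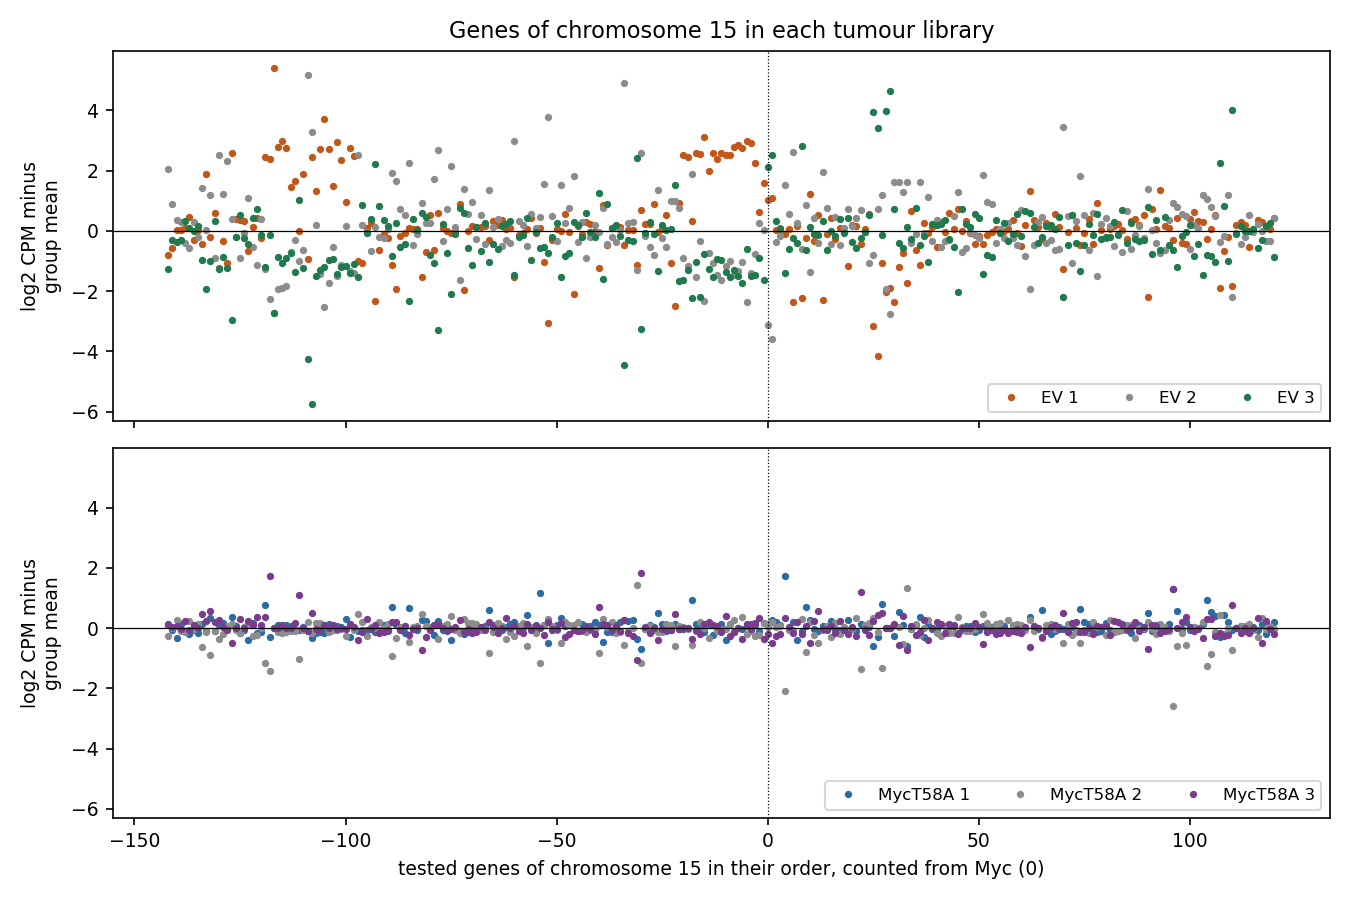
Deviation of log2 CPM from the group's mean for genes in their order along chromosome 15, for each tumour, counted in genes from Myc. EV1 has a block of high genes just before Myc and another set farther off on the same side, and most genes of the MycT58A tumours lie near 0.

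Most runs of EV2 and EV3 lay in known gene clusters. In EV2, H2-DMa to H2-Ea-ps (chr17:34119541-34344645, 10 genes) and H2-D1 to H2-Q10 (chr17:35262730-35474563, 6 genes) belong to the MHC region. The third run of EV2, on chromosome 18, went from Adamts19 to Iigp1 (5 genes) and mixed a protease, a chondroitin synthase and interferon-induced GTPases. In EV3, the type I keratins Krt23 to Krt36 (chr11:99477974-100105626, 12 genes), the type II keratins Krt80 to Krt78 (chr15:101347444-101954287, 14 genes) and Hoxb8 to Skap1 (chr11:96281905-96759130, 7 genes) were among the 7 upward runs. The 1 downward run of EV3 held 7 protocadherins on chromosome 18, Pcdhac2 to Pcdhb7.

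Among the MycT58A tumours the genes of largest SD included several of glial cells, and MycT58A 2 was most often the tumour apart. Of the 473 genes with an SD above 1 in this group, MycT58A 2 was the farthest from the others for 69.3%, MycT58A 1 for 21.1% and MycT58A 3 for 9.51%. Gfap, the filament protein of astrocytes, stood at 267, 6.07 and 171 CPM in MycT58A 1, 2 and 3 and at 242, 339 and 197 CPM in EV1 to EV3 (SDs 2.97 and 0.39, adjusted p = 0.0243 with limma). Ncan, a proteoglycan of the brain's matrix, stood at 27.3, 2.13 and 30.3 CPM against 76.2, 67.2 and 57.3 CPM (SDs 2.14 and 0.21, adjusted p = 0.0345 with limma). These are the 2 genes the variance-ratio test with limma called in this direction, and the large SDs of both rest on MycT58A 2. Without MycT58A 2 the log2 ratio of the SDs, empty-vector over MycT58A, went from -2.92 to -0.22 for Gfap. For Ncan it went from -3.38 to 1.03, larger among the empty-vector tumours. No gene was called in this direction without MycT58A 2, but none was called without MycT58A 1, MycT58A 3 or EV2 either. The water channel Aqp4 stood at 36.6, 1.24 and 32.7 CPM and the potassium channel Kcnj10 at 51.7, 0.852 and 21.0 CPM, and neither was called (adjusted p = 0.0797 and 0.0618 with limma). MycT58A 2 was lowest for 14 of 17 astrocyte markers, beside 5489 of 13455 genes overall. The summed level of these markers was 1752, 946 and 1434 CPM in MycT58A 1 to 3 and 1403, 5064 and 1509 CPM in EV1 to EV3.

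Oligodendrocytes, the cells that wrap axons in myelin, gave the 1 list of 47 with the larger median SD in the MycT58A group, 1.85 against 1.13. MycT58A 1 was highest for 13 of 14 measured markers and MycT58A 2 lowest for 13 of 14, and the summed level was 776, 91.0 and 125 CPM in MycT58A 1 to 3, against 189, 633 and 108 CPM in EV1 to EV3. Mbp, myelin basic protein, stood at 334, 13.6 and 20.4 CPM in MycT58A 1 to 3 and at 37.8, 164 and 35.1 CPM in EV1 to EV3. The high tumour was thus MycT58A 1 in 1 group and EV2 in the other. Over all 13455 genes, 5118 were highest in MycT58A 1 and 5489 lowest in MycT58A 2. Microglia and macrophage markers took the same order as the oligodendrocyte markers, with MycT58A 1 highest for 20 of 21 and MycT58A 2 lowest for 19 of 21. The median SDs of that list, 0.67 in the MycT58A and 0.97 in the empty-vector group, lay closer together than those of all genes.

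The ATF4 list was a further exception, while heat shock genes (median SDs 0.62 in the empty-vector and 0.23 in the MycT58A group) and metallothionein and oxidative stress genes (0.73 and 0.25) were not. The ATF4 program raises amino acid synthesis and uptake under stress. MycT58A 2 was highest for 18 of 18 of its genes, beside 4104 of 13455 genes overall. The median SD was 0.51 in the MycT58A and 0.55 in the empty-vector group, and 9 of 18 genes had the larger SD in each. Trib3, a pseudokinase induced in this program, stood at 5.18, 36.1 and 5.12 CPM in MycT58A 1 to 3 and at 8.12, 3.27 and 9.58 CPM in EV1 to EV3. Asns, asparagine synthetase, moved less, at 908, 1237 and 727 CPM. MycT58A 3 was highest for 10 of 14 choroid plexus markers, beside 4233 of 13455 genes overall. The summed level of these markers was 707, 843 and 1127 CPM in MycT58A 1 to 3, and Otx2 was highest in MycT58A 2 instead. Ttr, the thyroid hormone carrier of that tissue, stood at 0.720, 0.639 and 241 CPM in MycT58A 1 to 3. It stood at 0, 40.8 and 0.0567 CPM in EV1 to EV3, so its SD was large in both groups, 4.80 and 4.97. The transferrin receptor Tfrc stood at 243, 156 and 620 CPM in MycT58A 1 to 3.

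Single genes of many functions stayed level in both groups. Among 6905 genes with a mean of at least 20 CPM in each group, 498 (7.21%) were in the lowest 25% of SD in both, which meant an SD of at most 0.307 in the empty-vector and 0.0789 in the MycT58A group. Of these lists, oxidative phosphorylation had 5 such genes of 18 and vesicle transport 4 of 18. Ribosome biogenesis had 0 of 25, nucleotide and one-carbon metabolism 0 of 22, mitosis 0 of 22 and MHC class I 0 of 5. With a share of 7.21% over all such genes, a count of 0 in lists this short says little about them. Vesicle transport had the smallest median SD of the functions named here among the empty-vector tumours, 0.27 against 0.08, and oxidative phosphorylation had 0.36 against 0.06. As lists they were still more spread in the empty-vector group. The SD was larger there for 18 of 18 genes in each, beside 89.2% of all genes. The variance-ratio test called 17 and 18 of them, beside 57.8% of all genes, so these calls carry the group-wide difference. Copa, a coat protein of Golgi vesicles, stood at 407, 351 and 392 CPM in EV1 to EV3 and at 327, 329 and 298 CPM in the MycT58A tumours. Ndufb10, a subunit of the same respiratory complex as Ndufb9, stayed at 88.9, 92.0 and 85.3 CPM in EV1 to EV3 and 80.2, 78.1 and 77.9 CPM in the MycT58A tumours.

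The 10 genes of smallest SD in both groups, among those with a mean of at least 50 CPM in each, included an iron regulator, a transcription factor and a kinase partner. Aco1, which binds iron-response elements, stood at 85.4, 88.0 and 86.0 CPM in EV1 to EV3 and at 117, 118 and 115 CPM in the MycT58A tumours. Maz, a zinc finger factor, stood at 154, 156 and 159 CPM and at 266, 270 and 269 CPM. Cab39, a partner of the kinase LKB1, stood at 100, 104 and 105 CPM and at 104, 107 and 101 CPM. Such genes were chosen for small SDs in both groups, so their evenness follows from the choice. The moderated test still called Aco1 (adjusted p = 0.024, limma) with the group-wide difference. Genes often used to normalize assays were not the steadiest. Over 16 of them the median SD was 0.45 in the empty-vector and 0.17 in the MycT58A group, beside 0.62 and 0.18 over all genes. The SD was larger in the empty-vector group for 11 of the 16, beside 89.2% of all genes. Pgk1 and B2m, described above, had SDs over 1 in the empty-vector group.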

How the data were processed

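The authors deposited whole-number read counts per gene symbol for 9 libraries. Per the submitters' processing notes, bcl2fastq, TopHat and edgeR were used with the mm10 build; versions, read counter, annotation and strandedness are unknown here, so overlapping and antisense genes, and near-identical copies, cannot be separated.

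Groups follow the genotype labels, and replicates are numbered in sample order. Counts were scaled by TMM (edgeR 4.0.16, R 4.3.3) over genes kept by filterByExpr in all 9 libraries, and CPM and log2 CPM (prior count 2) were then computed for every gene. This set of genes for the scaling was settled after values were seen; scaling over all genes is an added alternative. Genes with a mean of at least 1 CPM over the 6 tumours were kept, a filter that uses neither group nor spread. Total counts per tumour were 16631523 to 30410089, and a Poisson model of the counts gave the counting SD. Each group's variances were moderated over genes with an abundance trend (squeezeVar, limma 3.58.1), compared by a two-sided F test and adjusted by Benjamini-Hochberg at 0.05. Lists are described by counts and medians. Positions come from GENCODE vM21 (mm10). Figures used matplotlib 3.10.9 (Python 3.11.15).

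Tested on simulated data for this comparison (13455 genes, 200 of them changed), the F test recovered 0%, 1% and 10% of genes whose SD was raised 2-fold, 4-fold and 8-fold when both groups had the MycT58A spread, with 0 unchanged genes called. With each group's own spread it called 11327 unchanged genes, since the groups then differ for most genes. Each gene was simulated on its own, whereas in the data many genes moved together in a library. The simulation therefore does not give the error rate of the test under such shared shifts.

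Members, lists and tests were chosen with earlier results of these data known. Named genes are the engineered and sex-linked genes, those of largest and smallest SD, the extremes of each list and those farthest apart in a library; Pvt1, other list members and genes of the neighbouring-gene runs, and the hair, bone and tooth, and acute-phase lists, were chosen with their values in view. Alternatives changed the scaling, prior count, filter, moderation, test (limma on absolute deviations) and transformation (DESeq2 1.42.0), thinned the counts, took off counting variance, used edgeR dispersions, or left out each library. Some results on single genes are not reported here.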

Additional observations from a re-analysis of the deposited data

How the results depend on the processing

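The larger spread of the empty-vector group kept its direction under every alternative run: the log2 ratio of the median SDs was 1.21 to 2.16, and the difference of the per-library medians 0.171 to 0.330. The percentage of genes with the larger SD in that group, 89.2%, was 99.6% by edgeR tagwise dispersions, 86.1% with filterByExpr, 91.0% with a mean of 5 CPM, 83.0% with no low-count filter, and 72.9% to 91.6% with 1 library left out. The count of genes called more variable in it, 7781, was the least stable value: it was 504 with no abundance trend, 2662 with no low-count filter, 82 with no moderation, 0 with limma on absolute deviations (4159 at an unadjusted p under 0.05), and 0 to 11010 with 1 library left out. The 2 genes called for the MycT58A group were 0 with limma on absolute deviations, 0 with no abundance trend, 0 with no moderation, 1 with DESeq2's variance stabilised values, 66 with no low-count filter, and 0 to 3 with 1 library left out. Among the named genes with a ratio of SDs, 132 results over alternatives kept direction and call, 48 lost the call, and 2 reversed: the log2 ratio of Ncan, -3.74 to 1.03 with 1 library left out, was 1.03 without MycT58A replicate 2, and that of Vtn, -0.94 to 3.70, was -0.94 without empty-vector replicate 2. Lists with the larger median SD in the empty-vector group numbered 40 to 46 of 47, genes set apart 467 to 617 and constant genes 459 to 508. No paired analysis was possible because the labels carry no replicate numbers that tie an empty-vector tumour to a MycT58A tumour. Depth limits the genes below 3 CPM most, where the median counting SD was 0.198 and 0.235; 3 tumours a group limit the rest.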

Other observations

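Genes of the Y chromosome were uneven among the empty-vector tumours. Ddx3y, a Y-linked RNA helicase, stood at 59.4, 4.71 and 38.2 CPM in EV1 to EV3 and at 70.2, 72.6 and 54 CPM in the MycT58A tumours. Kdm5d, a Y-linked histone demethylase, stood at 8.32, 0.340 and 8.16 CPM against 14.7, 12.8 and 11.9 CPM. EV2 was thus low for both while Xist, the RNA of the inactive X chromosome, was at 1.82, 1.53 and 0.850 CPM in EV1 to EV3 and at 0.177 to 1.51 CPM in the MycT58A tumours.

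Imprinted genes, which are expressed from the copy of a single parent, included several of wide spread. Phlda2, a growth-limiting gene of the placenta, stood at 2.47, 0.637 and 98.4 CPM in EV1 to EV3 and at 2.69 to 3.58 CPM in the MycT58A tumours. Grb10, an adaptor of insulin signalling, stood at 43.7, 11.1 and 460 CPM against 17.5 to 47.2 CPM. Igf2r, the receptor that clears IGF2, was high in EV1, at 665, 140 and 125 CPM against 89.9 to 101 CPM. Igf2 itself varied more among the MycT58A tumours, at 23.5, 0.852 and 11.5 CPM, than among the empty-vector tumours, at 62.6, 203 and 46.3 CPM (SDs 2.45 and 1.12). Over 18 of 23 imprinted genes that passed the filter, 13 had the larger SD in the empty-vector group, beside 89.2% of all genes.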
